A study of Gallus gallus with 16 samples.

Results

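This account describes 60 rows of a chicken pituitary microarray table that were picked for low age means at embryonic days 12 and 14 (E12 and E14) and higher age means at E10 and E17. A row is 1 spot of the array. The table has 7200 rows, 7103 had at least 3 values at every age, and 6310 of these had E10 and E17 means less than 0.45 apart. Each eligible row got a rule score, which is the lower of its E10 and E17 means minus the average of its E12 and E14 means, and the 60 rows with the highest score are the members. The members were thus chosen by the measured values of all 16 arrays, and their age means are a description that carries no test.

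The study profiled pituitary RNA of chicken embryos at these 4 ages, and every age had 4 biological replicates. The glands of several embryos went into 1 replicate: 16 embryos for E10, 8 for E12, 4 for E14 and 2 for E17. The amplified RNA of a replicate was labelled with Cy3 and hybridised to a cDNA array beside a Cy5-labelled pool of all 16 samples, and the dyes were not swapped. No embryo carried a treatment or a genotype in the labels, and the groups differed by age and, with it, by the number of embryos per pool, which cannot be told apart.

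The anterior pituitary holds several kinds of hormone-producing cells that differentiate from a common epithelial pouch. The study's title names 3 of them, thyrotrophs, which make thyrotropin, somatotrophs, which make growth hormone, and lactotrophs, which make prolactin. In mammals these lineages depend on the transcription factor POU1F1, and somatotrophs and lactotrophs of the chick become numerous late in incubation. An RNA that is low for a short time in whole glands may be made by fewer cells or in smaller amount per cell, which cannot be told apart in such pools.

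The values are the authors' deposited log ratios, read as log2 of sample over pool, and the arrays had been centred near 0 and scaled to a common SD, 0.261. Base and direction of the ratio are not stated in the sources used here, so "low" means low under the reading of sample over pool. The array annotation used here names 54 rows, all as STUB1, and leaves 7146 unnamed here, so that glands could not be checked against pituitary marker genes. Between 7023 and 7194 rows per array held a value. On 4 arrays, replicates 3 and 4 of E12 and of E14, 39 to 45 spots among the first 45 of the table had no value, while the other 12 arrays lacked 0 or 1 of them. These 4 are called the blank-spot arrays below. The number of arrays, 4 per age, limits the precision.

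Over the 60 members, the mean was 0.10 ± 0.06 (E10), -0.18 ± 0.06 (E12), -0.15 ± 0.09 (E14) and 0.10 ± 0.04 (E17) (mean over rows ± SD over arrays, n = 4). The average of the middle ages was thus 0.27 below that of E10 and E17 (difference -0.267), a size that the choice itself sets. By array, the member mean was 0.08, 0.02, 0.14 and 0.16 in E10 replicates 1 to 4. It was -0.10, -0.24, -0.16 and -0.22 in those of E12, and -0.06, -0.25, -0.10 and -0.20 in those of E14. It was 0.08, 0.06, 0.14 and 0.12 in those of E17. All 8 arrays of the middle ages lay below all 8 arrays of E10 and E17. Within both middle ages, replicates 2 and 4 were lower than replicates 1 and 3, a division the rule did not use and which was noticed in these values. Over all values, the array medians of replicates 1 to 4 were 0.016, 0.010, 0.015 and -0.005 at E12. At E14 they were 0.017, 0.002, 0.0001 and -0.023. These medians thus held the same division at E12 but not at E14, where replicates 2 and 3 were nearly equal. The mean of each array over the rows eligible when that array was left out held the division at both ages. These means were 0.029, 0.017, 0.020 and 0.012 at E12, and 0.024, -0.006, 0.001 and -0.001 at E14.

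**Figure D1:**
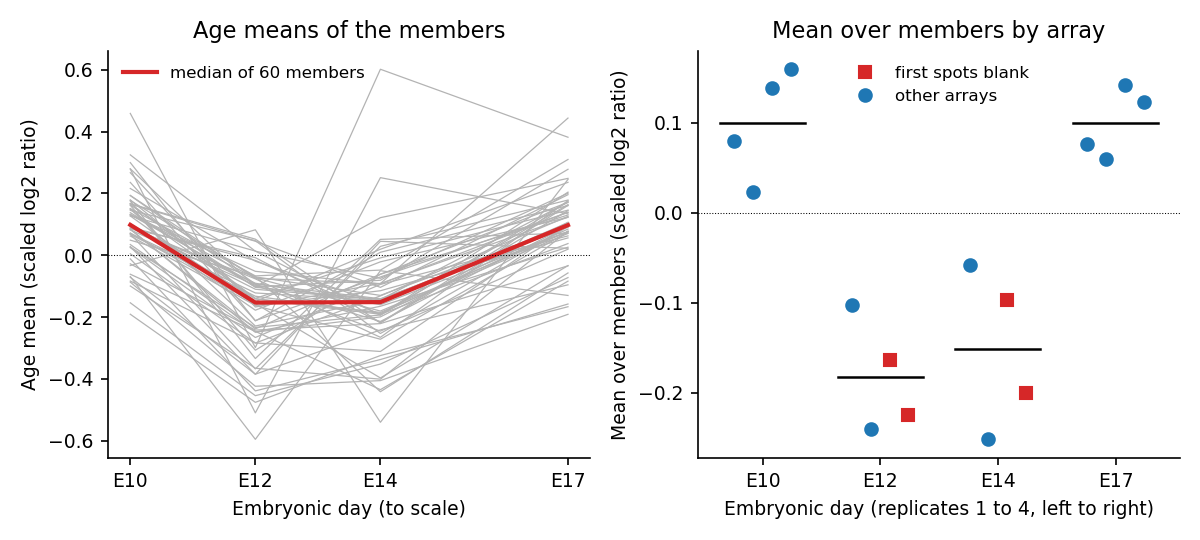
Left, age means of the 60 members (grey lines) and their median (red) as scaled log2 ratios of sample over pool, against embryonic day to scale. Right, the mean over the members on each of the 16 arrays, with the age mean as a bar and the 4 blank-spot arrays as red squares; the E12 and E14 arrays lie between -0.25 and -0.06 and the E10 and E17 arrays between 0.02 and 0.16.

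Single members followed this outline loosely. The E12 mean was below 0 in 54 members and the E14 mean in 52, while the E10 mean was above 0 in 49 and the E17 mean in 50. In 55 members both middle means were below both outer means; in 1 the E12 mean, and in 4 the E14 mean, was at or above the lower of the outer means. The members divided evenly in which middle age was lower, with 30 lower at E14 than at E12 and 30 lower at E12 than at E14. The E17 mean was higher than the E10 mean in 26 and lower in 34, and the difference lay between -0.15 and 0.28, so that the limit of 0.45 was reached by none.

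The ranking had no break where membership ends. Scores of members lay between 0.191 and 0.346, with a median of 0.219. Row 5204, the last member, scored 0.1909, and row 5164, the first row outside, 0.1896. Within 0.02 of the last member there were 23 members above or at it and 24 other eligible rows below it. Rows chosen with the sign turned, for high values at E12 and E14, reached further: the 60 of them scored 0.216 to 0.607, with a median of 0.252. Of all eligible rows, 24.7% had a score above 0 for low middle ages and 25.1% for high middle ages.

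The members had wide replicate spread, which a choice of the most extreme scores favours by itself. Their pooled SD within ages had a median of 0.249 (range 0.108 to 1.04), against 0.172 for all 7103 rows tested, of which 16.4% lay above the members' median. For members the median SD by age was 0.160 (E10), 0.234 (E12), 0.239 (E14) and 0.228 (E17). For all rows tested it was 0.113 (E10), 0.165 (E12), 0.186 (E14) and 0.136 (E17). The rule score was larger than the row's own pooled SD in 19 of the 60. The score is a difference between means of several arrays and the SD a spread of single arrays, so this count is no test. The share over all eligible rows was not counted.

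**Figure D2:**
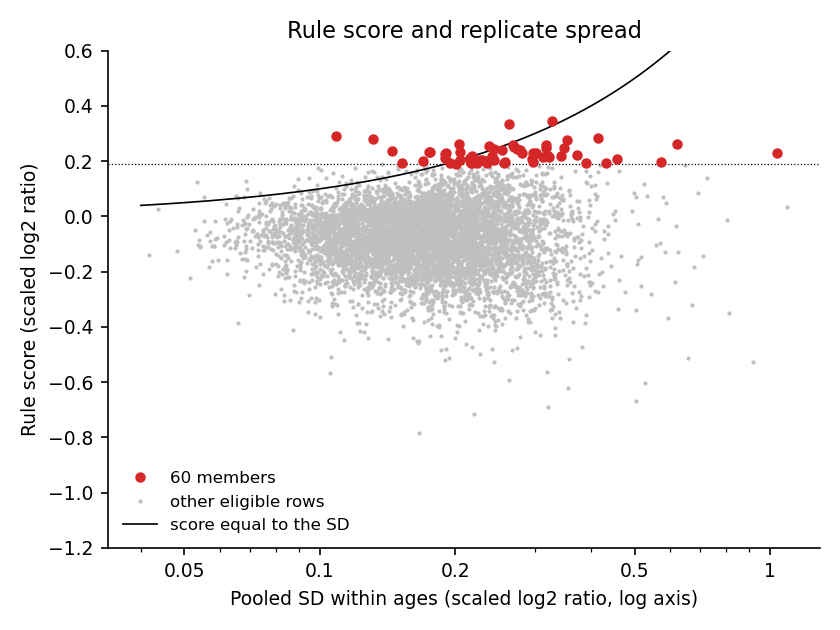
Rule score of each eligible row against its pooled SD within ages, both in scaled log2 ratios, the SD on a log axis. Red points are the 60 members and the dotted line is the score of the last one; the solid curve marks a score equal to the SD, and 19 members lie above it.

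Row 6045 had the highest score, 0.346. It read 0.21, -0.08, 0.38 and 0.13 on the E10 arrays, -0.03, 0.33, -0.52 and -1.01 at E12, 0.09, -0.06, -0.05 and -0.23 at E14, and 0.20, 0.15 and 0.17 on the 3 E17 arrays with a value. The low E12 mean came from replicates 3 and 4, both blank-spot arrays, while replicate 2 stood above every E17 array. Row 6994, the second with 0.336, read 0.33, -0.01, 0.16 and 0.12 at E10, 0.03, -0.24, -0.57 and -0.14 at E12, 0.00, -0.22, -0.29 and -0.07 at E14, and 0.28, 0.65, 0.11 and -0.35 at E17. Its ages overlapped, since E17 replicate 4 was below every E14 array and E10 replicate 2 was below replicate 1 of E12 and of E14.

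The 2 members with the smallest spread were the clearest. Row 2710 (pooled SD 0.108) read 0.27, 0.04, -0.01 and 0.21 at E10, -0.23, -0.26, -0.12 and -0.04 at E12, -0.23, -0.39, -0.29 and -0.18 at E14, and 0.12, -0.07, 0.17 and 0.08 at E17. Its E12 and E14 arrays were all below its E10 arrays, and E17 replicate 2 was the sole outer array to reach below a middle one. Row 5937 (pooled SD 0.131) read 0.21, 0.21, 0.20 and 0.33 at E10, -0.14, -0.46, -0.11 and -0.13 at E12, 0.10, 0.03, -0.31 and -0.11 at E14, and 0.06, 0.17, 0.14 and 0.19 at E17. Its E12 arrays were below all outer arrays, whereas E14 replicate 1 was above E17 replicate 1.

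The 2 members with the largest spread each had arrays far from the rest of their age. Row 6344 read -2.31 on E12 replicate 4 and between 0.00 and 0.20 on the other E12 arrays. Its E14 mean, 0.25, was higher than its E17 mean, 0.13. Row 4458 read 2.39 on E10 replicate 4, against -0.42 to -0.03 on the other E10 arrays, and 2.53 on E14 replicate 3, against -0.40 to 0.34 on the other E14 arrays. Its E14 mean, 0.60, was the highest of its 4 age means. Row 4458 was nonetheless a member, with high outer means, 0.46 at E10 and 0.38 at E17, beside an E12 mean of -0.30. The E17 mean held 1.68 on replicate 4, against -0.44 to 0.26 on the other E17 arrays. In 8 members the lowest of the 8 middle values lay more than 0.5 below the next. With that lowest value removed, a step added after the data were seen that can only lower a score, the score had a median of 0.162, and 12 of the 60 stayed at or above the score of the last member.

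Separation of the arrays was counted age by age, with no test, because these ages chose the rows. All E12 arrays lay below all E10 arrays in 6 of the 60 members, against 271 of the 7103 rows tested (3.82%). All E14 arrays lay below all E10 arrays in 8 members, against 550 of the rows tested (7.74%). All E12 arrays lay below all E17 arrays in 7 members, against 400 of the rows tested (5.63%), and all E14 arrays below all E17 arrays in 4, against 190 (2.67%). In 0 members did all 8 middle arrays lie below all 8 outer arrays, as they did in 3 rows of the table (0.0422%). In the fit of all 16 arrays, limma's contrast of the middle against the outer ages called 30 rows lower (0.422%), and 2 of them, rows 2710 and 5937, were members. The rule chose the members on this contrast, so nothing is read from that count, which was 1 with the replicate number as a block and 0 to 2 with 1 array left out.

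To see the pattern in values that had not chosen the rows, 60 rows were chosen anew without each array in turn, and the array left out was then read in them. On the left-out E12 arrays these rows averaged 0.08, -0.09, -0.01 and -0.06 (replicates 1 to 4), against -0.20 to -0.30 on the kept E12 arrays. On the left-out E14 arrays they averaged 0.07, -0.02, 0.16 and -0.01, against -0.19 to -0.27 on the kept ones. The left-out arrays of the middle ages thus lay on both sides of 0, with 5 of 8 below it, and each was higher than the kept arrays of its age. On the left-out E10 arrays the rows averaged -0.09, -0.08, 0.02 and 0.03, against 0.10 to 0.12 on the kept ones. On the left-out E17 arrays they averaged -0.04, -0.14, 0.02 and 0.01, against 0.12 to 0.13 on the kept ones.

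Taken by age, the left-out means were -0.03 ± 0.06 (E10), -0.02 ± 0.07 (E12), 0.05 ± 0.08 (E14) and -0.04 ± 0.07 (E17) (SD, n = 4). The middle ages were 0.048 above the outer ages on left-out arrays, against -0.352 on kept arrays. The lower values at E12 and E14 were therefore not seen on the left-out arrays, in choices that each held 39 to 47 of the members. These arrays were not independent of the kept ones. Over all rows tested, deviations from the age means correlated between same-numbered arrays. The r was -0.01 to 0.30 for E12 with E17, and 0.03 to 0.30 for E14 with E17. How far such sharing moved the left-out means was not tested. The members are best called by their rule, not as RNAs shown to be low at these ages. The 16 choices share most of their arrays, and no p was computed for them.

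**Figure D3:**
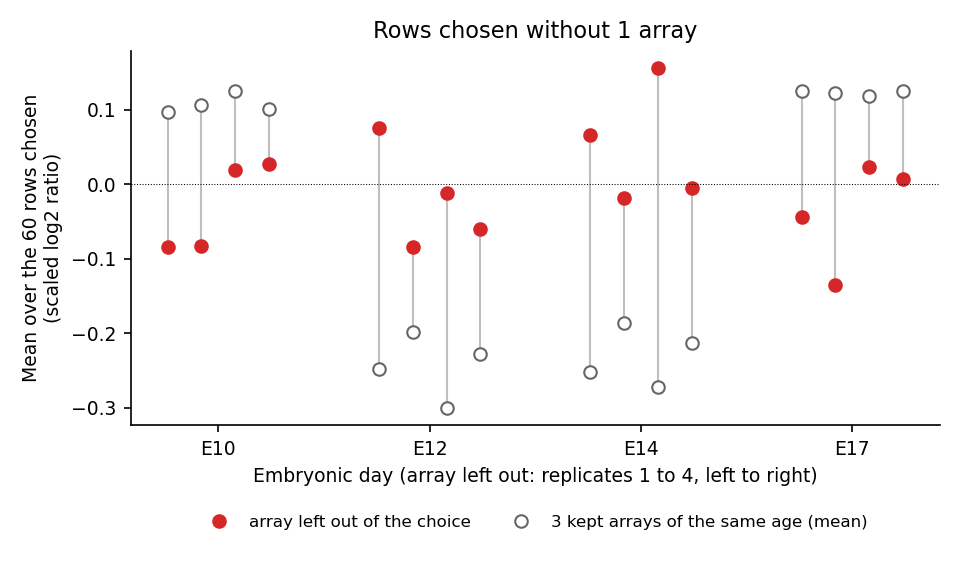
Mean over the 60 rows chosen without 1 array, as a scaled log2 ratio: red points give the array left out of the choice, open points the mean of the 3 kept arrays of the same age, for replicates 1 to 4 within each embryonic day. Kept arrays lie between -0.30 and -0.19 at E12 and E14, while left-out arrays lie between -0.09 and 0.16 there.

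Membership itself shifted with the arrays used. Leaving out 1 array kept 39 to 47 of the 60 (median 43.5). Of the members, 6 were chosen in all 16 runs, 25 in 12 to 15 runs and 29 in fewer than 12. Rows 6045, 6994, 2710 and 5937, described above, were among the 6, and row 5204 was chosen in 4 runs. Medians in place of means over the arrays kept 33, and asking for both middle ages to be low kept 38.

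The difference between E14 and E12 was tested, because the rule used only the sum of these means. The choice still bears on it, since 1 extreme low value can set both the sum and the difference, as in rows 6344 and 2250. The median SE of the difference was 0.160 in members, against 0.120 in all rows tested. The counts that follow are therefore not free of the choice. Of the 60 members, 0 passed limma's test at an adjusted p of 0.05, against 56 of the 7103 rows tested (0.788%). At an unadjusted p under 0.05 there were 4 members (6.67%), all higher at E14, against 719 of all rows (10.1%), of which 406 were higher (5.72%). The median difference over members was 0.00, and in 44 of them the size was under 0.2. The lowest and highest were -0.62 and 0.90.

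**Figure D4:**
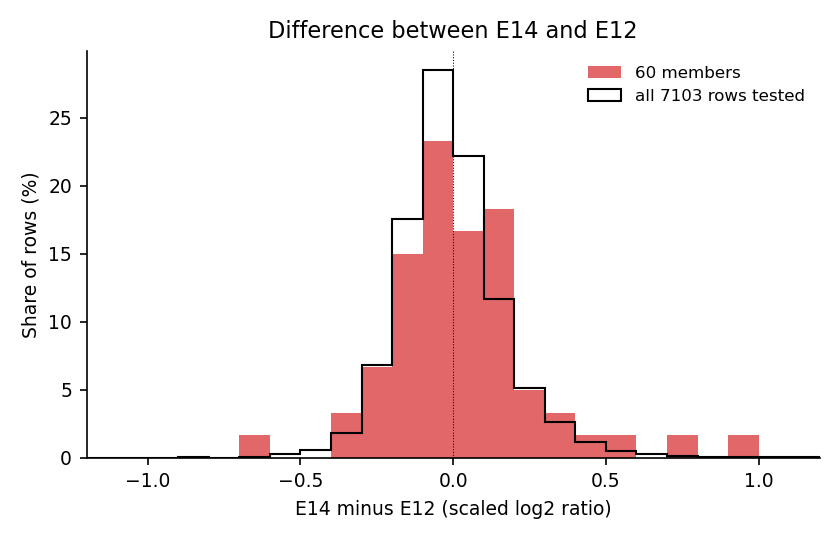
Share of rows, in percent, by the difference between the E14 and E12 means in scaled log2 ratios, for the 60 members (red bars) and all 7103 rows tested (black outline; 19 of them lie outside the axis). The members' differences lie on both sides of 0, between -0.62 and 0.90.

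Those 4 members were low mainly at E12, and they are named here because of their values. Row 379 read 0.10, 0.02, 0.24 and -0.24 at E14, against -0.19, -0.38, -0.49 and -0.41 at E12, so that E14 replicate 4 alone overlapped with E12. Its difference was 0.40 (SE 0.11, limma adjusted p = 0.102), which became 0.49 without E14 replicate 4 (limma adjusted p = 0.0346). Row 7011 differed by 0.39 (SE 0.13, limma adjusted p = 0.233) and row 4495 by 0.43 (SE 0.16, limma adjusted p = 0.32). E14 replicate 3 added to the difference in row 7011, at 0.50 against -0.14 to -0.07 on the other E14 arrays. These others also lay above all E12 arrays, which read -0.37, -0.18, -0.18 and -0.61.

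The fourth is row 577, the sole member with a gene name, STUB1, the ubiquitin ligase also known as CHIP, a partner of chaperones. It read -0.14, -0.37, 0.61 and -0.30 at E14, against -0.50, -1.34, -0.36 and -0.18 at E12, and the ages overlapped. The difference was 0.55 (SE 0.26, limma adjusted p = 0.493). Row 577 ranked 59 of 60 and was chosen in 5 of 16 runs. In the annotation 54 rows carry this name, the sole name it holds, and 1 of them is a member. Whether row 577 measures STUB1 was not checked, and no level is given for the gene.

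By size alone, the members that differed most between the middle ages were row 4458 (0.90, SE 0.61, limma adjusted p = 0.659) and row 6344 (0.76, SE 0.37, limma adjusted p = 0.512) upward. Each turned on 1 array: row 4458 differed by 0.26 without E14 replicate 3 and row 6344 by 0.16 without E12 replicate 4, and without the blank-spot arrays they differed by 0.13 and 0.04. Downward they were row 2250 (-0.62, SE 0.34, limma adjusted p = 0.578) and row 5115 (-0.37, SE 0.19, limma adjusted p = 0.528). Row 2250 read 0.04, 0.03, -1.66 and -0.57 at E14, against 0.06, -0.29, 0.53 and 0.03 at E12. Both low values were on blank-spot arrays; without E14 replicate 3 the difference was -0.25, and without the blank-spot arrays the difference was 0.15 (limma adjusted p = 0.991). Row 5115 read -0.75, -0.71, -0.25 and -0.06 at E14, against -0.22, 0.12, -0.26 and 0.09 at E12, with the low values on the arrays whose first spots held values.

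The blank-spot arrays were compared with the other arrays within E12 and E14, a difference that does not enter the rule, although 1 extreme low value can bear on both. They are replicates 3 and 4 of both ages, so blank spots and replicate number cannot be told apart here. This fit had no term for the number. Over the members the blank-spot arrays averaged -0.19 at E12, against -0.17 on the other arrays, and -0.15 at E14, against -0.15. Of the 60 members 0 passed limma's adjusted test, as did 0 of all rows. At an unadjusted p under 0.05 there were 9 members (15%), 4 higher and 5 lower on blank-spot arrays, against 8.31% of all rows (3.96% higher and 4.35% lower). This count depended on the fit. It was 8 members after subtracting array medians, against 8.35% of all rows, and 7 after quantile normalization, against 7.81%. Without 1 array it was 6 to 9 members, against 6.18% to 14.4% of all rows. Without moderation it was 3 members, all lower, against 8.02% of all rows. With array weights it was 4 members, all lower, against 7.70% of all rows.

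Ranked by limma's moderated t, the lowest on the blank-spot arrays were row 6045, at -0.45 on average against 0.08 on the other arrays of these ages (difference -0.54, SE 0.16, limma adjusted p = 0.439), and row 7128. Row 7128 read -0.49, -0.49, -0.59 and -0.61 on the blank-spot arrays, against 0.02, -0.03, -0.13 and -0.41 on the others, without overlap (difference -0.40, SE 0.12, limma adjusted p = 0.444). The highest by the same ranking were row 577 (difference 0.53, SE 0.23) and row 4436 (difference 0.30, SE 0.13), both with a limma adjusted p of 0.576. By difference alone, which lay between -0.57 and 0.89 over the members, the most extreme were row 6344 (-0.57) and row 4458 (0.89), both of wide spread. Rows 6045 and 7128 were picked as the lowest of the members by this ranking, and neither passed the adjusted test. In row 6045 the blank-spot arrays were the lower ones at E12. At E14 its replicate 3, a blank-spot array, read -0.05, and its replicate 2, not a blank-spot array, read -0.06. The part of the blank-spot arrays in the membership of rows 6045 and 7128 was not tested.

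Beyond the age means, correlation between pairs of members was centred near 0, slightly above that of all rows. Deviations from the age means correlated between pairs of members with a median r of 0.045 over 16 arrays (1770 pairs), against -0.001 for pairs of all rows tested. The quartiles were -0.18 and 0.28 for member pairs, against -0.25 and 0.25 for all pairs. As described above, the member mean still differed between replicates of E12 and of E14. Rows of an array share its handling, and no p is given. An r above 0.6 was found in 3.95% of member pairs and 4.24% of all pairs. Members lay from row 63 to row 7188, but unevenly. Successive blocks of 1800 rows held 10, 9, 17 and 24 members among 1429, 1538, 1677 and 1666 eligible rows. Some members lay close together, such as rows 6344, 6351, 6358 and 6360, and a part of position was not tested. Rows 4436 and 4437, and rows 6975 and 6976, were neighbours. A value was missing in 5 members (8.33%), against 3.53% of all rows tested.

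Outside the membership, the rows most like the members' mean over the 16 arrays were row 3253 (Pearson r = 0.86), row 3267 (r = 0.81) and row 5712 (r = 0.77), given as a description. Row 3253 averaged -0.03 ± 0.02 (E10), -0.16 ± 0.08 (E12), -0.16 ± 0.05 (E14) and -0.03 ± 0.04 (E17) (SD, n = 4). Its rule score, 0.124, was below that of every member, and it ranked 205 by the rule. A member's own correlation with the mean of the other 59 had a median of 0.53 (range 0.11 to 0.81). This r includes the age means, and all members were picked for the same outline over the ages. The choice itself thus favours a positive r, and nothing is read from its size.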

How the data were processed

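The members and the comparisons were chosen with earlier results of these data known. Values are the authors' deposited log2 ratios (Cy3 sample over Cy5 pool of all 16 samples, 2 µg each, from 500 ng of RNA amplified per sample, per the labels); base and direction are an assumption. Scanner, background correction and normalization are not stated by any label or header used, and the common SD shows that the deposited values were scaled. Rows with 3 or more values at every age entered the fits. limma 3.58.1 in R 4.3.3 (lmFit, eBayes) was fitted to all 7103 rows over 16 arrays with a mean per age, or with a further term for the blank-spot arrays, and p-values were adjusted by Benjamini-Hochberg over all rows at 0.05. Missing values were skipped. Choices without 1 array asked for 2 or more values at its age. Alternatives covered normalization, array weights, moderation, filters and left-out arrays. Fits and choice were checked for errors on simulated data, and nothing about the members is read from that check. Same-numbered E12 and E14 arrays correlated in deviations from their age means (r = 0.148 to 0.437 over rows), and over all ages 13 of 24 such pairs exceeded 0.1. In 3 pairs the E12 array correlated best with its own number at E14, while E12 replicate 4 did so with E14 replicate 2. Over the members the E12 and E14 same-number r lay between -0.04 and 0.09. The labels do not state a pairing, and the main fit had no term for the number, which entered as a block in an alternative. Named rows are those with the 2 highest scores, at the threshold, with the extreme E14 minus E12 differences, blank-spot moderated t values and spread, with a gene name, and the 3 most like the mean; others are said to be named for their values.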

Additional observations from a re-analysis of the deposited data

Results flagged for a closer look

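Among 93 groups of 4 arrays, 7 held 1 array that lay apart from the rest of its age, by Dixon's ratio of the gap to the whole range. The groups came from the mean over the members, the means on left-out arrays and, for the most part, the rows described. Chance flags about 1 in 20 groups, a rate for groups not picked for their values, whereas several of these rows were named for their spread or their differences. Row 4458 stood at 2.39 on E10 replicate 4 (others -0.42 to -0.03) and row 6344 at -2.31 on E12 replicate 4 (others 0.00 to 0.20). Row 5937 stood at 0.33 on E10 replicate 4 (others 0.20 to 0.21) and at -0.46 on E12 replicate 2 (others -0.14 to -0.11). Row 7011 stood at 0.50 on E14 replicate 3 (others -0.14 to -0.07). Of rows that are no members, row 5712 stood at -0.0229 on E17 replicate 2 (others 0.04 to 0.05) and row 1347 at -0.74 on E10 replicate 2 (others -0.44 to -0.43).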

How the results depend on the processing

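Of the 60 members, 33 were chosen again with medians, 38 with the higher of the E12 and E14 means, 50 after quantile normalization, 55 after subtracting array medians or with all 4 values required, 60 and 59 with limits of 0.3 and 0.6, and 39 to 47 without 1 array. On left-out arrays the middle minus outer difference was 0.048, against -0.352 on kept arrays of the same choices and -0.267 in the members over all arrays. The SD over left-out arrays was 0.06 to 0.08 per age, so 0.048 is not read as an opposite pattern. For E14 against E12 (56 rows), 1 row passed without the blank-spot arrays, 17 in a fit of these ages alone, and 38 to 138 without 1 array (138 without E14 replicate 1); 0 members passed except row 379 without E14 replicate 4 (0 to 1). With the replicate block 70 rows (60 higher and 10 lower) and 0 members passed, and none of the 4 rows named for their E14 minus E12 difference changed its side of the threshold. For middle against outer ages (40 rows), 25 passed without the blank-spot arrays and 26 to 61 without 1 array (26 without E10 replicate 3, 61 without E14 replicate 1). The 2 members became 1 after subtracting array medians, without moderation and with the replicate block, 0 without the blank-spot arrays, and 0 to 2 without 1 array. For the blank-spot arrays 0 to 4 rows and 0 members passed without 1 array (4 without E17 replicate 1). Row 2250 reversed to 0.15 without the blank-spot arrays. A fit of these ages alone and left-out arrays have fewer arrays; other causes were not tested.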

Other observations

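The 3 rows of the table whose 8 E12 and E14 arrays all lay below all 8 E10 and E17 arrays were not eligible, because each was higher at E17 than at E10 by more than the limit of 0.45. In the opposite direction, 1 row had all middle arrays above all outer arrays. Row 1377 missed the limit narrowly, with an E17 minus E10 difference of 0.459. It averaged -0.11 ± 0.07 (E10), -0.36 ± 0.11 (E12), -0.29 ± 0.07 (E14) and 0.35 ± 0.19 (E17) (SD, n = 4), and its middle minus outer difference was -0.45 (SE 0.07, limma adjusted p = 0.00123). Row 2886 averaged -0.38 ± 0.12, -0.86 ± 0.12, -0.86 ± 0.12 and 0.32 ± 0.22 at E10, E12, E14 and E17 (difference -0.83, SE 0.08, limma adjusted p = 3.36e-06). Row 1347 averaged -0.51 ± 0.16, -0.92 ± 0.05, -0.89 ± 0.12 and 1.05 ± 0.31 (difference -1.17, SE 0.09, limma adjusted p = 2.09e-07). These rows were picked because their arrays did not overlap, so the p-values add no separate evidence. In each of the 3 the highest age mean was at E17.

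Of the 30 rows called lower by the contrast of the middle against the outer ages, 2 were members and 1 was eligible but ranked 87. The other 27 were not eligible, because their E10 and E17 means were 0.45 or more apart. The contrast uses the average of E10 and E17, so a row high at E17 alone can be called. Row 299, for example, averaged -0.96 (E10), -1.09 (E12), -0.82 (E14) and 1.14 (E17). Over the 30 rows the median difference was -0.66 and the median pooled SD 0.173, against 0.249 in the 60 members.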
